A study of Mus musculus with 8 samples.

Results

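The 8 genes described here, Hmgcs1, Idi1, Fdps, Sqle, Lss, Cyp51, Dhcr7 and Insig1, take part in cholesterol synthesis or in its sterol control, and their expression was followed in sorted epithelial cells of mouse skin tumours after deletion of Twist1 or of Twist1 and p53. They were taken by symbol: every probe set with 1 platform symbol among the 8 was kept, which gave 18 of 45101 probe sets in the table of the Twist1 arrays and 11 of 45083 in the table of the Twist1/p53 arrays. All 8 genes had at least 1 probe set in each table, and all passed the filter on low values, among 18193 and 17084 genes with 1 symbol.

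Tumours had been induced with DMBA, a carcinogen, and TPA, a tumour promoter, and every mouse, controls included, received 5 doses of 2 mg tamoxifen. In the Twist1 table, 2 arrays of Twist1fl/fl controls stood against 2 arrays of K14CreER:Twist1fl/fl cells. In the other table, 2 arrays of Twist1fl/fl:p53fl/fl controls stood against 2 arrays of K14CreER:Twist1fl/fl:p53fl/fl cells. Controls thus carried the floxed alleles but no CreER, the tamoxifen-dependent recombinase that the keratin 14 promoter drives in basal epithelial cells. The mice were littermates of mixed background, with no age given in the sources used here, and the sorted cells were live, Epcam+ and negative for lineage markers. Nothing says that the 2 arrays of a group came from separate animals, so p-values measure only the spread between these samples, which may be technical.

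Cells build cholesterol from acetyl-CoA: the early, mevalonate steps end in farnesyl diphosphate, and the later, sterol steps turn squalene into lanosterol and then cholesterol. Transcription of nearly all these enzymes is driven by SREBP factors, which the endoplasmic reticulum protein Insig1 holds back while sterols are plentiful. In skin, cholesterol goes into the membranes of dividing keratinocytes, the lipid barrier of the outer epidermis and the lipids that sebaceous glands secrete.

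Values are the authors' log2 values per probe set and array, taken as log2 from their range, so that 1 unit is a doubling. They were compared within a table only, since the tables hold different array types. Each gene was read from its probe set with the highest mean in the table: Fdps from 1423418, Sqle from 1415993, Cyp51 from 1450646, Dhcr7 from 1448619 and Insig1 from 1454671 in both tables, Idi1 from 1451122 and 1423804, Hmgcs1 from 1433443 and 1441536, and Lss from 1420013 and 1426913. Twist1 itself checks the labels: its probe set gave 5.20 and 7.18 on the control arrays and 3.81 and 3.90 after Twist1 deletion, a difference of -2.33 with an adjusted p of 0.5. In the Twist1/p53 table it fell from 6.15 and 6.04 to 4.82 and 5.01, with an adjusted p of 0.0413. The 8 epidermal epithelial markers had mean levels from 11.68 to 11.98 on the Twist1 arrays and from 10.95 to 11.16 on the others. The 16 leukocyte markers averaged 5.35 to 5.49 and 4.77 to 4.90. Ptprc, which encodes the CD45 used in the sort, was under the filter in both tables, but 12 and 13 of the 16 were above it. The highest of them on the Twist1 arrays was Cd14, which read 7.58 to 8.99. Xist, a transcript of the silenced X chromosome of female cells, was at 11.81 and 11.87 on the Twist1 control arrays and at 6.98 and 6.07 on the Twist1 deletion arrays, and at 10.92 and 10.89 against 4.06 and 3.66 in the other table. Eif2s3y, on the Y chromosome, ran the opposite way, from 3.62 and 3.52 to 9.42 and 9.35 and from 3.52 and 3.26 to 8.90 and 9.27. Sex, the presence of CreER and the deletion can therefore not be told apart in either comparison. Nor can fewer cells of a type and less RNA per cell, since each array measured a bulk of sorted cells.

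Promoter sequence was available in RefSeq (build GRCm38.p6) for 6 of the 8 genes, all but Sqle and Fdps, in 8 windows, 3 of them of Dhcr7, of 250 bases before to 50 after a transcription start. Of these, the 250 bases before the start of Hmgcs1, Lss, Cyp51 and Insig1 are shown, because Hmgcs1 or Lss was called after Twist1/p53 deletion, depending on the probe sets read, and Cyp51 and Insig1 varied together over the arrays. Capitals mark 3 motifs on either strand: the sterol regulatory element core TCACNCCAC, which SREBP factors bind, the NF-Y box CCAAT and the Sp1 box GGGCGG, bound by factors that act beside SREBP.
Hmgcs1, chr13:119690101-119690350, plus strand: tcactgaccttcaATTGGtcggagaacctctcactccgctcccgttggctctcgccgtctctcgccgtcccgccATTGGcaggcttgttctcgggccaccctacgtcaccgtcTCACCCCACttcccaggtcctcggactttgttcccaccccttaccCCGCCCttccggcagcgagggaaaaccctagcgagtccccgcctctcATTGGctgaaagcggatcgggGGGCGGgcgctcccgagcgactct
Lss, chr10:76531355-76531604, plus strand: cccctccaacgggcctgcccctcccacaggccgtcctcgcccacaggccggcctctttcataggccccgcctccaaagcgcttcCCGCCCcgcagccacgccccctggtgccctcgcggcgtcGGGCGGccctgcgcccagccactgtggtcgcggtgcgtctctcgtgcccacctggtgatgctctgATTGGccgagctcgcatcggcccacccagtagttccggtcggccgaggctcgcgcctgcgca
Cyp51, chr5:4104698-4104947, minus strand: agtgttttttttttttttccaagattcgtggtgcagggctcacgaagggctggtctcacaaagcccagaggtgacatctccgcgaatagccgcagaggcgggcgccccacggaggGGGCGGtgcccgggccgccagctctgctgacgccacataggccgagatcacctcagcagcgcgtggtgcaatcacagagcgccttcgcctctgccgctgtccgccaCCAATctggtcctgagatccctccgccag
Insig1, chr5:28071162-28071411, plus strand: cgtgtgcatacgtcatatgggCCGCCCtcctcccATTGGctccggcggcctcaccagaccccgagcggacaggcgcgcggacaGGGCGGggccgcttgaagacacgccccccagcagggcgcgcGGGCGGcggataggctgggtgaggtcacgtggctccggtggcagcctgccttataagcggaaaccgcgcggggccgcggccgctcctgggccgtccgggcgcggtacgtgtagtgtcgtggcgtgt
No marked matches overlap each other. The Hmgcs1 window held the only match to the sterol regulatory element core among the 8 windows, starting 137 bases before the start, against 1.24% of 32851 mouse promoter windows of the same length. In the bases shown it lay among 3 NF-Y boxes, at 237, 176 and 45 bases before the start, and 2 Sp1 boxes at 92 and 24. At least 1 NF-Y box was found in 6 of the 8 windows, against 37.4% of all windows. An Sp1 box was found in 7, against 35.7%. These are matches of letters only; they are not evidence of binding in these cells, and a window without a match says nothing of the factor.

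After Twist1 deletion, the means of 7 of the 8 genes were lower than in the controls, with a median log2 difference of -0.30 beside -0.03 over all genes, but none was called, that is, none had an adjusted p under 0.05. Fdps, Sqle and Hmgcs1 were lower on both deletion arrays than on either control array; Idi1, Lss, Cyp51, Dhcr7 and Insig1 overlapped their controls. Groups lay apart on the low side for 24.7% of all 14554 genes, so 3 of 8 is no result about the 8, and 54.2% of all genes had a lower mean. By limma, 0 of the 8 were called, against 0.0344% of all genes, and 2, Fdps and Sqle, had an unadjusted p under 0.05, against 9.17%.

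Among the mevalonate enzymes, Fdps, which makes farnesyl diphosphate for sterols and for protein prenylation, had values of 10.62 and 10.62 on the control arrays, 10.01 and 9.89 on the deletion arrays. Its 2 groups lay well apart, with a difference of -0.67 (SE 0.12, adjusted p = 0.382), or 1.59-fold lower. Hmgcs1, which joins acetyl-CoA units into HMG-CoA at the head of the pathway, had 11.96 and 12.01 on the control arrays, 11.77 and 11.32 on the deletion arrays. That difference of -0.44 (SE 0.17, adjusted p = 0.551) came mostly from the lower of the 2 deletion arrays. Idi1, the isomerase that supplies dimethylallyl diphosphate, had 10.95 and 11.03 against 11.11 and 10.85, so the deletion arrays lay on either side of the controls. Its difference was -0.01, with a 95% confidence interval from -0.36 to 0.34.

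Of the sterol enzymes, Sqle, the squalene epoxidase, was at 11.15 and 10.93 on the control arrays, 10.58 and 10.18 on the deletion arrays. Both deletion values lay below both controls, and the difference was -0.66 (SE 0.18, adjusted p = 0.5), or 1.58-fold lower. Lss, which folds the epoxide into lanosterol, was at 8.85 and 9.19 against 9.0 and 8.55, with a difference of -0.24 (SE 0.22). Cyp51, the demethylase of lanosterol, was at 9.88 and 9.68 against 9.98 and 9.52, with a difference of -0.03 and a 95% confidence interval from -0.55 to 0.48. For both, only the second deletion array was below the controls. Dhcr7, the reductase of a last step to cholesterol, was at 9.20 and 10.04 against 10.12 and 9.28. The 2 arrays of each group were nearly a full unit apart, and the difference of 0.09 had an SE of 0.40. Insig1, the sterol-dependent brake and itself a target of SREBP, was at 9.58 and 9.50 against 9.84 and 8.54. Its deletion arrays lay on opposite sides of the controls, and the difference of -0.35 had an SE of 0.43.

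**Figure D1:**
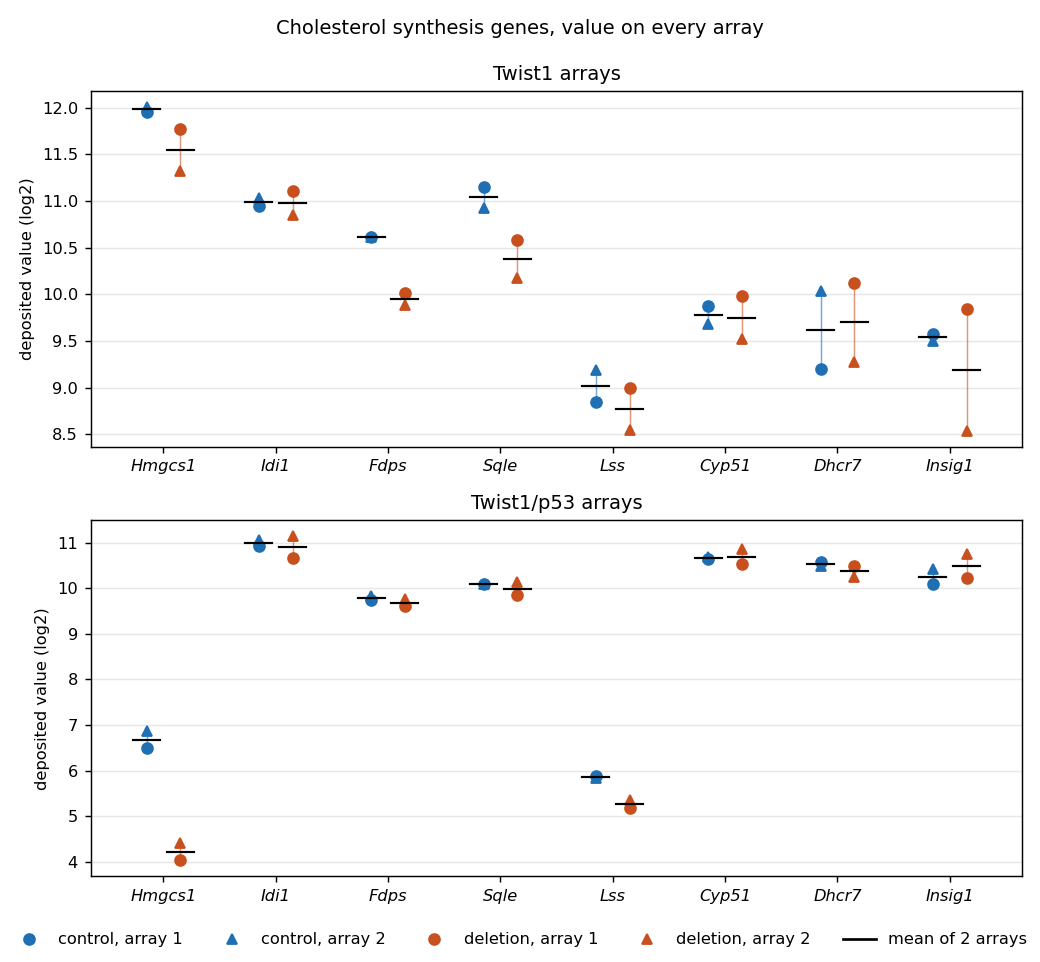
Deposited log2 value (vertical axis) of the 8 cholesterol synthesis genes on every array, for the Twist1 arrays (top) and the Twist1/p53 arrays (bottom); circles are array 1 and triangles array 2 of a group, blue is control, orange is deletion, and black bars are means of 2 arrays. In the Twist1 panel Fdps, Sqle and Hmgcs1 separate the groups, and the lowest value of 7 of the 8 genes is the deletion array 2; in the Twist1/p53 panel Hmgcs1, Lss and Dhcr7 separate them, with Hmgcs1 and Lss read from their listed probe sets.

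The second Twist1 deletion array was the lowest of the 4 arrays for 7 of the 8 genes, against 32.8% of all genes. Without that array the median of the 8 differences was 0.05: Fdps was at -0.60, Sqle at -0.46 and Hmgcs1 at -0.21, while Insig1 was at 0.30, Cyp51 at 0.20, Idi1 at 0.12 and Dhcr7 at 0.51. The direction thus held without that array for Fdps, Sqle, Hmgcs1 and, at -0.02, Lss, and turned for Idi1, Cyp51 and Insig1. The same array stood apart in other respects. The mean of the 7 sebocyte markers measured was 8.59 on it, against 6.97 to 7.26 on the other 3 arrays. Of the 7, 6 had higher means in the deletion, while 54.2% of all genes had lower ones. The markers did not move alike. Elovl3 was at 4.53 and 8.68 on deletion arrays 1 and 2, and Far2 at 4.03 and 8.10. Scd3, Elovl3 and Far2 were below both controls on deletion array 1. Pparg was higher on array 1 than on array 2, at 7.82 against 6.89, and so was Fabp5. Suprabasal keratinocyte markers averaged 8.77 on deletion array 2, against 9.44 to 9.62, with 5 of the 7 tested lower in the deletion. Krt1, Krt10 and Ivl were below both controls on deletion array 1 too, at 10.40, 11.65 and 6.81. Lor, Sbsn, Krtdap and Calml3 were above both controls there, Lor by the most, at 9.11 against 5.41 and 5.64. Both deletion arrays also had a wider gap between the 3′ and 5′ control probe sets of Gapdh, at 0.22 and 0.30 against 0.04 and 0.03, and of Actb, at 0.95 and 0.78 against 0.63 and 0.63, a gap that widens as RNA degrades. Proliferation markers averaged 10.31 and 10.18 in the deletion and 10.62 in both controls. The part of these in the cholesterol gene values was not tested.

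In the Twist1/p53 deletion, Hmgcs1 fell on the single probe set the annotation gives it, 1441536, while 4 further Hmgcs1 probe sets, named by number, differed by only -0.14 to -0.37 and were not called. Lss was 1.5-fold lower without being called, and the other 6 genes differed by at most 0.22 in either direction. The means of 6 of the 8 genes were lower, against 53.1% of all genes, and the median difference was -0.10 beside -0.02 over all 13667 genes tested. Hmgcs1 was the 1 gene called, against 1.8% of all genes called in either direction and 0.622% called lower; 2 of the 8, Hmgcs1 and Lss, had an unadjusted p under 0.05, against 21.2%. The groups lay apart on the low side for Hmgcs1, Lss and Dhcr7, 3 of 8 beside 29.8% of all genes, a share too near the background to be a result about the 8.

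Hmgcs1 was at 6.49 and 6.86 on the control arrays, 4.03 and 4.40 on the deletion arrays. The difference was -2.46 (SE 0.21, adjusted p = 0.0221), and the groups lay apart. The deletion values lie close to the filter level of 3.98, and whether they are above background could not be examined, so the size of this difference is uncertain. Probe set 1433443, named by number, gave -0.14 (adjusted p = 0.387). The call was lost without either control array, at -2.64 (adjusted p = 0.149) without the first and -2.27 (adjusted p = 0.167) without the second. With the replicate number as a block the adjusted p was 0.0571. Idi1 was at 10.93 and 11.07 against 10.67 and 11.14, and Fdps at 9.75 and 9.83 against 9.61 and 9.77. For these 2 the differences were both -0.10, with 95% confidence intervals from -0.56 to 0.36 and from -0.38 to 0.19.

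Sqle was at 10.09 in both controls and at 9.85 and 10.14 in the deletion, a difference of -0.09 (SE 0.13). Lss was at 5.87 and 5.84 against 5.17 and 5.36, with a difference of -0.59 (SE 0.14, adjusted p = 0.122). Cyp51 was at 10.64 and 10.69 against 10.53 and 10.87, a difference of 0.03 (SE 0.13). In contrast to Lss, the deletion arrays of Sqle and Cyp51 fell on both sides of the controls. Dhcr7 was at 10.58 and 10.50 against 10.49 and 10.26, apart by a narrow margin, with a difference of -0.17 (SE 0.11). Insig1 was at 10.09 and 10.43 against 10.22 and 10.76, a difference of 0.22 (SE 0.22).

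The 2 deletion arrays differed here too. The first was the lowest of the 4 arrays for 6 of the 8 genes, against 25.3% of all genes. Without it, 4 of the 8 were called, while 27.6% of all genes were: Hmgcs1 at -2.27, Lss at -0.49, Dhcr7 at -0.28 and Insig1 at 0.49. Without the second, Hmgcs1, Lss and Idi1 were called, at -2.64, -0.68 and -0.33, beside 24.6% of all genes. The median of the 8 differences, -0.10 over all arrays, was 0.02 without the first and -0.21 without the second. Suprabasal markers averaged 8.62 on the first deletion array and 9.49 on the second, against 10.09 and 10.23 in the controls. All 8 were lower on both deletion arrays than on either control, as were 29.8% of all genes. Sebocyte markers averaged 7.47 and 7.94 on the deletion arrays against 7.35 and 6.87 on the control arrays. The Gapdh gap between 3′ and 5′ control probe sets was -0.02 and -0.04 on the deletion arrays and -0.03 and 0.06 on the controls. What part these have in the values of the 8 genes was not tested.

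The probe sets of a gene gave differences of unequal size, and the Hmgcs1 call rested on 1 of them. Hmgcs1 has 5 probe sets on the standard array type. On the Twist1 arrays their differences ran from -0.22 to -1.43, and the largest belonged to probe set 1441536, with 7.32 and 7.73 on the control arrays, 6.93 and 5.25 on the deletion arrays. That probe set is the only 1 the annotation of the perfect-match array names for Hmgcs1, and it gave the difference of -2.46. The 4 others, 1433443 to 1433446, exist in the Twist1/p53 table with no symbol listed, and were named through the same number on the standard array, a step added after the data had been seen. As to their values, 1433443 read 12.00 and 12.12 on the control arrays, 11.86 and 11.99 on the deletion arrays, a difference of -0.14 (SE 0.07). Probe set 1433446 read 11.01 and 11.07 against 10.64 and 10.69, a difference of -0.37 (SE 0.07, adjusted p = 0.0948). The remaining 2, 1433444 and 1433445, overlapped their controls, at -0.15 (SE 0.21) and -0.21 (SE 0.19). All 5 thus had lower means in both deletions, with differences from -0.14 to -2.46.

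For Lss the same step went the other way. Its listed probe set 1426913 gave -0.59, whereas 1420013, unlisted, read 10.32 and 10.35 on the control arrays, 9.55 and 9.46 on the deletion arrays. Probe set 1420014, also unlisted, read 10.05 and 10.16 against 9.25 and 9.19. Their differences of -0.83 (SE 0.09, adjusted p = 0.0377) and -0.89 (SE 0.10, adjusted p = 0.0395) passed the test over 35163 probe sets, of which 1.37% were called. When genes were named by number, with each gene again read from its probe set with the highest mean, Lss fell by 0.83 (adjusted p = 0.0345) and Hmgcs1 was at -0.14 (adjusted p = 0.364), with 2% of 14723 genes called. The count of called members stayed at 1, but the gene changed from Hmgcs1 to Lss. On the Twist1 arrays the 3 Lss probe sets gave -0.24, -0.06 and -0.58, the last being 1426913, at 7.17 and 7.11 against 6.55 and 6.57.

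**Figure D2:**
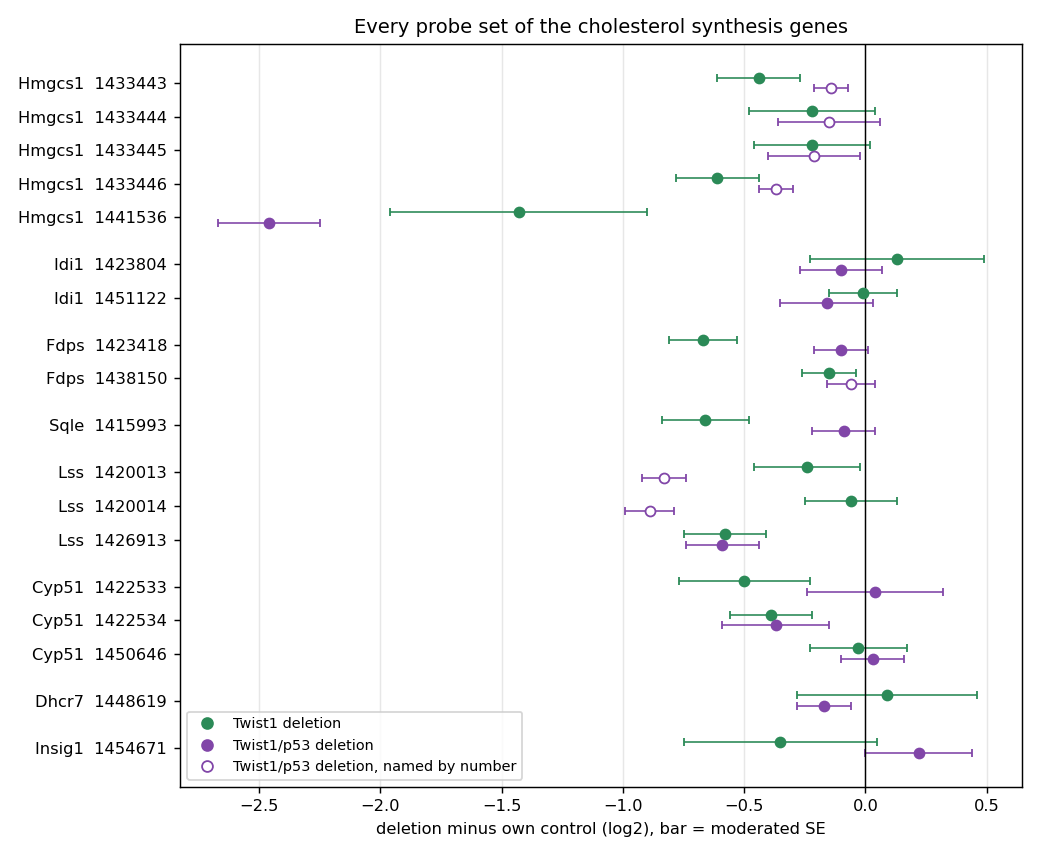
Log2 difference of deletion minus own control (horizontal axis, bars are moderated standard errors) for every probe set of the 8 genes, labelled by number; green is the Twist1 deletion, filled purple the Twist1/p53 deletion and open purple the Twist1/p53 deletion on probe sets named through their number. Hmgcs1 probe set 1441536 stands far left of the other 4 in both deletions, and the 2 open Lss symbols lie left of the filled one.

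Over the 18 probe sets of the Twist1 table, 16 had a lower mean in the deletion, 8 lay apart on the low side and none on the high side, next to 23.3% of all named probe sets apart on the low side. By limma none was called, next to 0.0315% of all, and 6 had an unadjusted p under 0.05, next to 8.61%. Over the 11 listed probe sets of the Twist1/p53 table, 8 had a lower mean and 3 lay apart on the low side, next to 26.7% of all. Only Hmgcs1 was called, next to 1.24%, and 2 had an unadjusted p under 0.05, next to 18.3%. Probe sets of 1 gene measure the same RNA and are not independent, so these counts are no result about the 8 genes. Cyp51 shows how far probe sets of 1 gene can part: on the Twist1 arrays 1422533 gave -0.50 (SE 0.27) and 1422534 gave -0.39 (SE 0.17), while 1450646, from which the gene is read, gave -0.03. A second Fdps probe set, 1438150, read 3.23 to 3.52 on the Twist1 arrays and 3.70 to 3.91 on the others. These values are under the filter level of each table (4.49 and 3.98). On the Twist1 arrays it was nonetheless among the probe sets apart on the low side.

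The difference between the 2 deletions was tested directly, over 13296 genes read from matched probe sets. By limma none of the 8 was called, against 0.173% of all genes, and 2 had an unadjusted p under 0.05, against 10.4%. Those 2 were Fdps and Sqle, at -0.67 and -0.66 after Twist1 deletion and at -0.10 and -0.09 after Twist1/p53 deletion. The difference for Fdps was 0.57 (95% confidence interval 0.20 to 0.94, adjusted p = 0.291), and for Sqle also 0.57 (0.01 to 1.13, adjusted p = 0.478). Insig1 differed by 0.58 (-0.74 to 1.89) and Hmgcs1, on probe set 1441536, by -1.02 (-2.68 to 0.63). Read from probe sets named by number, the Hmgcs1 difference was 0.30, of the opposite sign, with an adjusted p of 0.665. Idi1, Cyp51 and Dhcr7 differed by -0.15, 0.06 and -0.25. Lss differed by -0.01 on probe set 1426913 (-0.50 to 0.48), and by -0.58 (adjusted p = 0.509) on probe sets named by number.

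Across the 8 arrays, with each gene centred on its own table, some genes varied closely together. Here each gene was read from the probe set matched between the tables, which is 1441536 for Hmgcs1 and 1426913 for Lss. Sqle and Fdps had a Pearson r of 0.94 and Cyp51 and Insig1 of 0.89. These genes are read from the same probe sets when names go by number, so their r could not change. Hmgcs1 was closest to Lss, at 0.87, on the matched probe sets, but on probe sets named by number it stood at 0.60 with Lss and at 0.92 with Sqle. The r of Dhcr7 with the other 7 ran from -0.02 to 0.40, and from -0.02 to 0.55 by number. These correlations share the arrays and the group differences and describe these 8 libraries only. The mean of the 8 centred genes on the matched probe sets was lowest on deletion array 2 of the Twist1 table, at -0.54, and deletion array 1 of the Twist1/p53 table, at -0.34. By number the same arrays were lowest, at -0.41 and -0.18. Control array 2 of each table was highest both ways, at 0.28 and 0.26 on the matched probe sets and at 0.20 and 0.11 by number.

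Outside the 8, the pathway was read from a list of 20 enzymes that holds 7 of them and 13 others. In the Twist1 comparison 10 of the 13 were tested: 9 had lower means (54.2% of all genes), 6 lay apart on the low side (24.7%), none was called and 1 had an unadjusted p under 0.05 (9.17%), with a median of -0.29. The lowest was Hsd17b7, a sterol ketoreductase, at 9.52 and 9.56 on the control arrays, 9.10 and 8.74 on the deletion arrays, a difference of -0.62 (SE 0.17, adjusted p = 0.5). At the other end Fdft1, which makes squalene, differed by 0.08 (SE 0.17). Mvd, the last enzyme of the mevalonate stretch, differed by -0.47, with its second deletion array at 7.26 and the other 3 arrays from 8.06 to 8.22. In the Twist1/p53 comparison 9 of the 13 were tested: 7 had lower means (53.1% of all genes), 4 lay apart on the low side (29.8%), none was called and 3 had an unadjusted p under 0.05 (21.2%), with a median of -0.09. Mvd was at 8.77 and 8.76 on the control arrays, 7.90 and 8.20 on the deletion arrays, a difference of -0.71 (SE 0.16, adjusted p = 0.107). Tm7sf2, a sterol reductase, was at 8.17 and 8.18 against 7.59 and 7.68, a difference of -0.54 (SE 0.13, adjusted p = 0.127). Mvk, mevalonate kinase, singled out after its values were seen, differed by -0.49 (SE 0.11, adjusted p = 0.121) here and by -0.34 (SE 0.19) after Twist1 deletion. Sc5d, a sterol desaturase, lay on the high side, at 8.99 and 9.08 against 8.75 in both controls, and Msmo1, a methyl sterol oxidase, differed by 0.15 (SE 0.25). Nsdhl and Ebp, both X-linked in comparisons whose groups differ in sex marks, differed by -0.31 and -0.16 after Twist1 deletion and by -0.22 and -0.04 after Twist1/p53 deletion. Split by stage, the 6 mevalonate enzymes tested in the Twist1 comparison had a median of -0.39 and the 11 sterol enzymes of -0.16. The 5 and 11 tested in the other had medians of -0.49 and -0.09, with Hmgcs1 read from 1441536, at -2.46. Probe set 1433443 of Hmgcs1, named by number, gave -0.14. The median of the 5 mevalonate enzymes thus depends on which Hmgcs1 probe set is read, and so does its gap to the sterol enzymes.

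**Figure D3:**
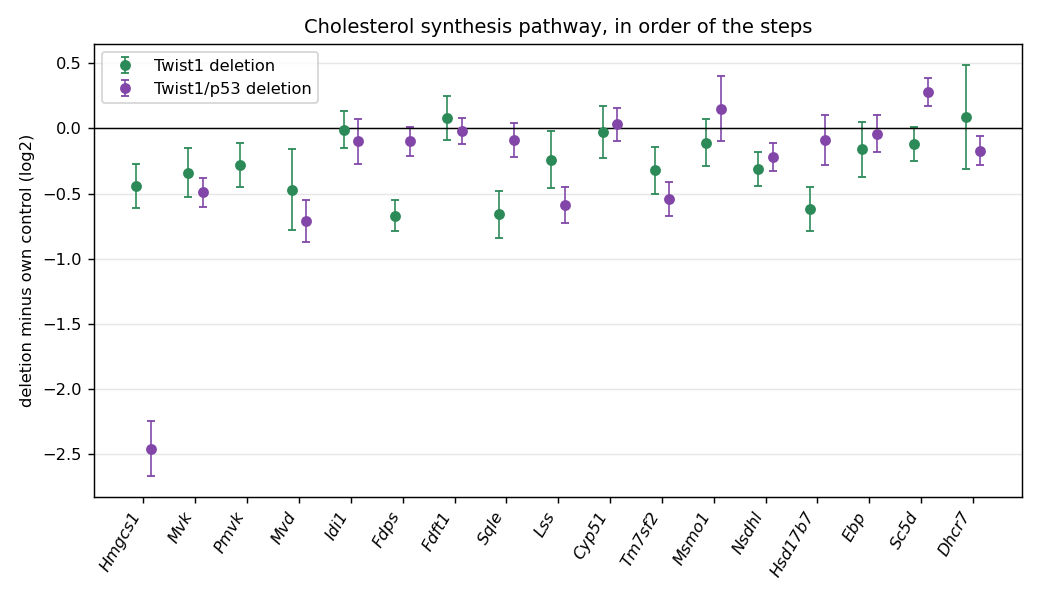
Log2 difference of deletion minus own control (vertical axis, bars are moderated standard errors) for the cholesterol synthesis enzymes tested, in the order of the pathway; green is the Twist1 deletion and purple the Twist1/p53 deletion. Most points lie between 0 and -0.71, apart from the listed Hmgcs1 probe set at -2.46 in the Twist1/p53 deletion.

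No gene of the SREBP apparatus was called by limma in either comparison, and none had an unadjusted p under 0.05. Over all genes, 0.0344% and 1.8% were called, and 9.17% and 21.2% had an unadjusted p under 0.05. Over the 7 genes tested after Twist1 deletion, differences ran from -0.35 to 0.18, with Insig1 lowest and Mbtps1, a protease that cuts SREBP in the Golgi, highest. Scap, the escort of SREBP, differed by 0.16 (SE 0.15) and the X-linked protease gene Mbtps2 by -0.20 (SE 0.17). In the Twist1/p53 comparison 6 were tested, and the range was -0.23 to 0.30, from Scap (SE 0.11) to Insig2 (SE 0.14), the relative of Insig1. Srebf2, which encodes the SREBP form most tied to cholesterol synthesis, differed by -0.13 (SE 0.12), and Mbtps2 by -0.08 (SE 0.24).

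Genes of sterol uptake and transport were lower in mean for all 6 tested after Twist1 deletion, against 54.2% of all genes. By limma none was called (0.0344% of all genes) or had an unadjusted p under 0.05 (9.17%). Stard4, a carrier of cholesterol between membranes, had 9.30 and 8.75 on the control arrays, 8.66 and 7.99 on the deletion arrays, a difference of -0.70 (SE 0.31, adjusted p = 0.569). Tmem97 differed by -0.47 (SE 0.20) and Npc2, which carries cholesterol out of lysosomal lipoproteins, by -0.02 (SE 0.17). With Twist1 and p53 deleted, 3 of 6 had lower means (53.1% of all genes). None was called (1.8%) and 2 had an unadjusted p under 0.05 (21.2%). Npc2 differed by 0.01 in this comparison. Stard4 was at 8.81 and 8.73 against 8.06 and 8.31, a difference of -0.59 (SE 0.15, adjusted p = 0.131). Lrp8, a receptor of the LDL receptor family, differed by -0.36 (SE 0.15). Scarb1, the receptor for high-density lipoprotein, differed by -0.18 (SE 0.16) after Twist1 deletion. In the Twist1/p53 table it was at 8.47 and 8.41 on the control arrays, 9.12 and 8.98 on the deletion arrays. That difference was 0.61 (SE 0.12, adjusted p = 0.092).

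Among genes of the sterol sensor LXR and of cholesterol efflux, 5 and 4 were tested. None was called (0.0344% and 1.8% of all genes), and 0 and 1 had an unadjusted p under 0.05 (9.17% and 21.2%). Abca1, the pump that loads cholesterol onto apolipoproteins, was at 8.38 and 8.37 on the Twist1 control arrays and at 8.82 and 10.20 on the Twist1 deletion arrays. Its difference of 1.14 (SE 0.45, adjusted p = 0.553) rested mostly on deletion array 2, the array on which the cholesterol genes were lowest. Apoe, a lipid-carrying apolipoprotein, was at 10.93 and 11.38 against 11.08 and 12.41, high on the same array. In the Twist1/p53 table Apoe was at 10.26 and 10.51 on the control arrays, 11.23 and 10.73 on the deletion arrays. That difference was 0.59 (SE 0.20, adjusted p = 0.197). Apoe was highest on deletion array 1, where the cholesterol genes were lowest in that table. Abca1 was not among the 4 genes tested there. Nr1h3, which encodes an LXR, differed by 0.14 (SE 0.12), and Mylip and Abcg1 by 0.07 and 0.15. After Twist1 deletion Mylip and Abcg1 differed by -0.09 and -0.16. On deletion array 2 of that table Mylip was at its highest, 9.14, and Abcg1 at its lowest, 5.77. Nr1h3 was at 5.00 on that array, between its controls at 4.80 and 5.02.

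Of the isoprenoid branch, which draws on farnesyl diphosphate, 6 genes were tested in each comparison. None was called (0.0344% and 1.8% of all genes), and 1 in each had an unadjusted p under 0.05 (9.17% and 21.2%). Ggps1, which makes geranylgeranyl diphosphate, read 7.39 and 7.14 on the Twist1 control arrays, 7.94 and 8.02 on the deletion arrays, a difference of 0.72 (SE 0.18, adjusted p = 0.472), opposite in sign to Fdps. Dhdds, of dolichol synthesis, and Pggt1b, a prenyltransferase subunit, differed by -0.35 and -0.33 and Fnta by 0.15. In the Twist1/p53 comparison Ggps1 differed by 0.28 (SE 0.15), Pdss2 by 0.12, Fntb by -0.21 and Fnta, a subunit of protein prenyltransferases, by -0.46 (SE 0.11, adjusted p = 0.12).

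Fatty acid genes under SREBP went both ways: 5 of 10 were lower in mean after Twist1 deletion (54.2% of all genes). After Twist1/p53 deletion 5 of 9 were (53.1%). None was called (0.0344% and 1.8% of all genes), and 1 and 4 had an unadjusted p under 0.05 (9.17% and 21.2%). Fads1, a desaturase of polyunsaturated fatty acids, was at 7.29 and 7.63 against 8.03 and 8.53, a difference of 0.82 (SE 0.24, adjusted p = 0.508). In the other table Fads1 was at 6.90 and 6.75 against 9.05 and 7.89, a difference of 1.65 (SE 0.41, adjusted p = 0.131). Fads2, a related desaturase, differed by 0.46 after Twist1 deletion, Acaca by -0.21 and Scd2 by -0.57. Acss2, which makes acetyl-CoA from acetate, was at 7.83 and 7.93 against 5.23 and 6.84, a Twist1/p53 difference of -1.84 (SE 0.55, adjusted p = 0.169). Acly, which makes acetyl-CoA from citrate, differed by -0.34 (SE 0.10) and Scd1 by 0.89 (SE 0.23).

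**Figure D4:**
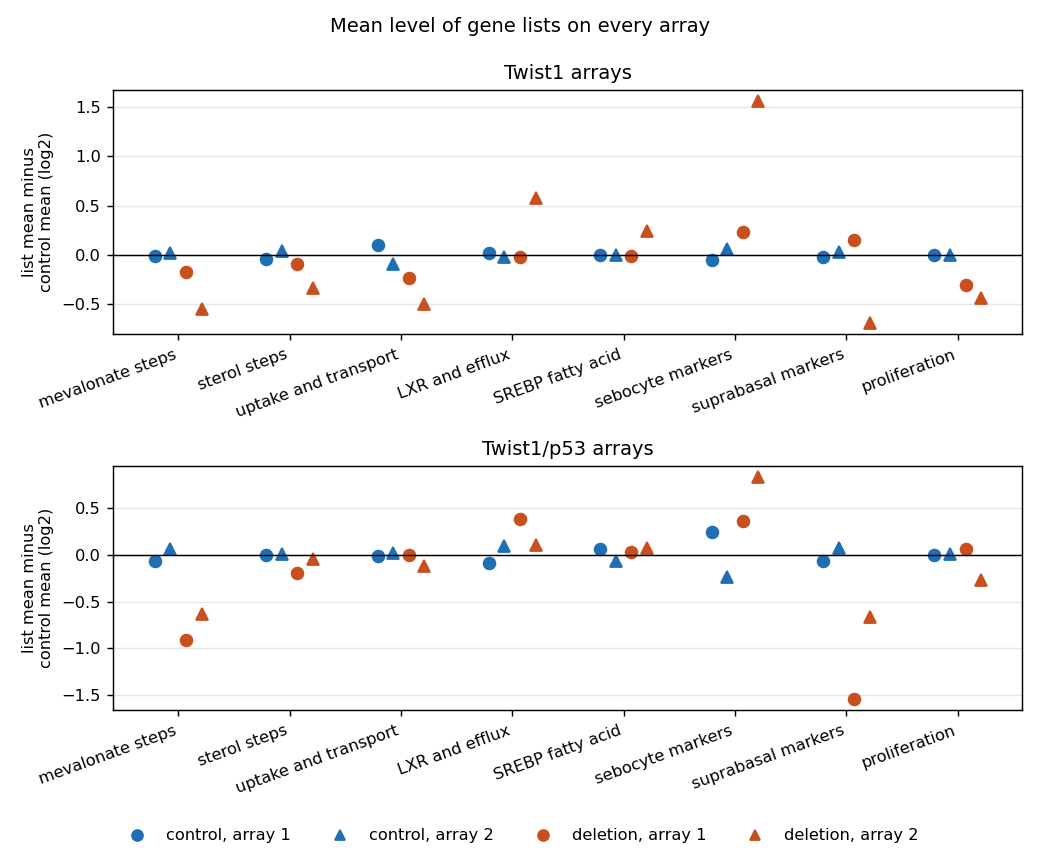
Mean level of 8 gene lists on every array, minus the mean of that table's controls (vertical axis, log2), for the Twist1 arrays (top) and the Twist1/p53 arrays (bottom); circles are array 1, triangles array 2, blue control and orange deletion. In the top panel deletion array 2 is lowest for the mevalonate and sterol steps and highest for the sebocyte markers. In the bottom panel deletion array 1 is lowest for the mevalonate and sterol steps and for the suprabasal markers. Hmgcs1 and Lss are read there from their listed probe sets.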

How the data were processed

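Total RNA of sorted tumour cells was measured on 8 arrays in 4 groups of 2. The authors deposited 1 value per probe set and array in 2 tables; they are taken as log2 values from their range, 2.76 to 14.45 with none negative, since no header states the scale. The log2 values as the authors deposited them have close array medians within each table (5.42 to 5.44 and 4.81 to 4.82), as normalized arrays do; no header records that step. Summarisation software and build are not given in the sources used here. Scanner files were not used, so signal against background could not be examined.

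Probe sets with 1 symbol in the platform annotation (34945 and 28864) were used. Each gene was read from its probe set with the highest mean in the table, and genes under the 20th percentile of those means (4.49 and 3.98) were left out. Deletion arrays were set against their own control arrays with limma 3.58.1 in R 4.3.3 (lmFit, eBayes, intensity trend), two-sided, with Benjamini-Hochberg adjustment over 14554 and 13667 genes; a gene with an adjusted p under 0.05 was called. SE is the moderated standard error, and n = 2 arrays per group, whose number limits the precision. The difference was fitted over all 8 arrays on 13296 genes matched by probe set number. Every probe set was also fitted without a filter. Tried besides were median centring, quantile normalization, a filter at the 50th percentile or none, averaging a gene's probe sets, a fit without the trend, a robust fit, the replicate block, leaving out each array or the X and Y genes, an adjusted p under 0.10 and, between tables, fits made apart or on tables scaled by their SD. The fits were tested on simulated data.

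The 8 genes and all lists were chosen with earlier results of these data known. Of each list of related genes, those called and the 2 with the highest and lowest moderated t are named, besides X-linked ones; Mvk was added. Of 15564 probe sets with no listed symbol in the Twist1/p53 table, 6299, of which 7 belong to the 8 genes, took the symbol of the same number in the other annotation, as an alternative added after seeing the data. The main fits did not treat replicate numbers as pairs. Across genes, the gap between the control arrays and the gap between the deletion arrays correlated at 0.03 and -0.02. That shows no shift shared by same-numbered arrays over all genes, but it cannot show that the samples are unpaired.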

Additional observations from a re-analysis of the deposited data

How the results depend on the processing

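Limits first: with 2 arrays per group, and pairs of deletion arrays that spread more than pairs of controls (SD of the gap between arrays 0.51 against 0.33 in the Twist1 table, 0.47 against 0.19 in the other), a gene that missed the threshold is not shown to be unchanged. When an array was left out, the lone array of its group was assumed to vary like the other group. Fdps, Sqle and Hmgcs1 stayed lower in the Twist1 comparison under all 14 alternatives, from -0.73 to -0.41, -0.86 to -0.46 and -0.66 to -0.21, and none of the 8 genes was called there under any. Hmgcs1 in the Twist1/p53 comparison was lower under the 14 that kept it, from -2.64 to -0.14, and called under 10.

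The count of called members in the Twist1/p53 comparison, 1, was 0 with a filter at the 50th percentile, which left out the listed Hmgcs1 and Lss probe sets; it ran from 0 to 4 when single arrays were left out. The count over the pathway list, 1, was likewise 0 with that filter and ran from 0 to 8. With the replicate number as a block, both were 0, and the genes called numbered 0 in place of 5 in the Twist1 comparison, 4 in place of 246 in the Twist1/p53 comparison and 6 in place of 23 for the difference; the cause was not tested. Genes called after Twist1 deletion, 5, numbered 1 with the filter at the 50th percentile, 3 with the mean over probe sets, 8 at an adjusted p under 0.10, 2 without X and Y genes, and 0 to 56 with an array left out. After Twist1/p53 deletion, 246 became 859 at 0.10 and 0 to 3775 with an array left out. For the difference, 23 became 12 with the 50th percentile filter, 46 at 0.10, 110 with separate fits and 10 to 144 with an array left out. The median over the 8 genes ran, with an array left out, from -0.57 to 0.05 in the Twist1 comparison, from -0.21 to 0.02 in the Twist1/p53 comparison and from -0.12 to 0.23 for the difference.

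Several signs turned. After Twist1 deletion Idi1 was at 0.01 with quantile normalization and 0.06 with the mean over probe sets, and Cyp51 at 0.01 with quantile normalization. After Twist1/p53 deletion Cyp51 was at -0.10 with the mean over probe sets. For the difference, Lss was at 0.01 with median centring and 0.00 with rescaled tables, and Hmgcs1 at 0.30 with names by number. With single arrays left out, the ranges that crossed 0 were, after Twist1 deletion, Idi1 -0.14 to 0.12, Cyp51 -0.26 to 0.20, Dhcr7 -0.33 to 0.51 and Insig1 -1.0 to 0.30. After Twist1/p53 deletion they were Sqle -0.24 to 0.05, Idi1 -0.33 to 0.13, Cyp51 -0.13 to 0.20 and Insig1 -0.04 to 0.49. For the difference they were Idi1 -0.41 to 0.12, Lss -0.10 to 0.09, Cyp51 -0.17 to 0.30, Dhcr7 -0.67 to 0.17 and Insig1 -0.07 to 1.22. The cause of these was not tested.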

Other observations

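Every gene on the lists used here was left out before ranking the genes whose values followed those of the 8 most closely. Over the 8 arrays, each gene centred on its own table and read from matched probe sets, Avpi1 had a Pearson r of 0.99 with the mean of the 8, and Eif1ad, Zcchc8, Rpusd2 and Stxbp5 each had 0.98. Rpusd2 was the one with the widest differences, -0.80 after Twist1 deletion (adjusted p = 0.583) and -0.95 after Twist1/p53 deletion (adjusted p = 0.133). Lgmn and Nfil3 had r of -0.99 and Agap2 of -0.98; Lgmn, a lysosomal protease gene, differed by 0.69 and 0.80 (adjusted p = 0.636 and 0.089). By limma none of these 8 was called in either comparison, against 0.0344% and 1.8% of all genes. Unadjusted p under 0.05 was reached by none after Twist1 deletion (9.17% of all genes) and by 4 after Twist1/p53 deletion (21.2%). They are the extremes of 13296 genes, listed genes left out, over 8 arrays that share both group differences, and are given as a description only. Within the pathway list Mvd had an r of 0.97, Mvk of 0.89 and Ebp of -0.32. With probe sets named by number the r of the first 8 genes ran from 0.90 to 0.98 and from -0.97 to -0.93, and those of Mvd, Mvk and Ebp were 0.90, 0.74 and -0.48.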
